A study of Homo sapiens with 6 samples.

Results

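Between CACNA2D1 and NRF1 on the long arm of chromosome 7, 59 genes were followed in 2 lung adenocarcinoma lines. They were listed by symbol and fall, in the order of the arm, into 3 blocks: 30 genes from CACNA2D1 to PON2, 10 from DYNC1I1 to CYP3A5 and 19 from MDFIC to NRF1. Every probe set annotated to exactly 1 of these symbols was read, which gave 140 probe sets for 57 of the 59 genes among 19775 genes on the array. KRIT1, a scaffold of the cerebral cavernous malformation complex, and FLNC, the muscle filamin, had no such probe set and were not analysed here. The list was drawn up with the differences between the lines on these same arrays known, so that the changes below describe the listed genes and test nothing about them.

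Genes that share a chromosome arm need share no function, and these range over secreted guidance cues, iron and copper reductases, caveolae, splicing and DNA replication. In tumour cells, segments of chromosome arms can be gained or lost as a whole, which alters the dosage of all genes on them. The long arm of chromosome 7 also carries imprinted genes, which are transcribed from 1 parental copy, SGCE and PEG10 among them. No DNA was measured on these arrays.

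PC9 is a gefitinib-sensitive line from a lung adenocarcinoma with an activating EGFR mutation, and gefitinib inhibits the EGFR kinase. PC9/gef, the gefitinib-resistant line, was selected from PC9 by continuous exposure to rising gefitinib concentrations, so that it stands for 1 selected derivative of 1 tumour line. Both were grown in the same serum-supplemented medium, and the labels do not say whether the drug was present when RNA was taken. RNA from 3 biological replicates of each line was hybridised to 1 Affymetrix array each, and since what set the replicates apart is not stated, p-values measure the spread between these arrays. Since RNA was taken from bulk cells, fewer cells expressing a gene and less RNA per cell cannot be told apart.

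The values are log2 intensities, 1 per probe set and array. Each gene was represented by the probe set whose average over the 6 arrays was highest, and a change is the mean of PC9/gef minus that of PC9, with the standard error (SE) of the limma fit to all genes. A gene was called where the p-value, adjusted over all genes by the Benjamini-Hochberg method, was under 0.05. The background level, 2.65, was the 95th percentile of 135 olfactory receptor probe sets, which are silent outside the nose in most cells. The lowest correlation of arrays within a line was 0.9992 and the highest between lines 0.9944. The epithelial markers EPCAM, KRT8, KRT18, KRT19 and CDH1 were far above background in both lines, whereas 3 of 4 lung lineage markers were at it, NKX2-1, NAPSA and SFTPC. Of the fibroblast, leukocyte and endothelial markers measured, 5 of 6, 3 of 4 and 3 of 3 were at background, the exceptions being COL1A1, with means of 7.94 in PC9 and 8.46 in PC9/gef, and LYZ, with 8.77 and 7.69. Their part in the changes below was not tested.

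Of the 6 genes that were over 2-fold lower in PC9/gef, 5 lie in the first block, and 4 of these are shown by sequence: STEAP4, STEAP1 and STEAP2, of the metalloreductase family, and TFPI2, which encodes a Kunitz-type inhibitor of serine proteases. The 250 bases before their transcription starts, shown to put the sequence next to the values, read as follows in RefSeq on GRCh38.p14, 5′ to 3′ on the strand of the gene, with motif matches in capitals. TFPI2 is read from the minus strand at chr7:93890754-93891003 and STEAP4 from the minus strand at chr7:88306895-88307144, STEAP1 from the plus strand at chr7:90154219-90154468 and STEAP2, at the more upstream of 2 starts, from the plus strand at chr7:90211490-90211739.
TFPI2: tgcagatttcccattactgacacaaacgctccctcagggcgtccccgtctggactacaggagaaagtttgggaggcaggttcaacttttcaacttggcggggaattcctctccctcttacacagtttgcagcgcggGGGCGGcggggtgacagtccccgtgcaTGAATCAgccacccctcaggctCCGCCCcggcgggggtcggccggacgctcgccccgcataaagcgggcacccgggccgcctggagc
STEAP4: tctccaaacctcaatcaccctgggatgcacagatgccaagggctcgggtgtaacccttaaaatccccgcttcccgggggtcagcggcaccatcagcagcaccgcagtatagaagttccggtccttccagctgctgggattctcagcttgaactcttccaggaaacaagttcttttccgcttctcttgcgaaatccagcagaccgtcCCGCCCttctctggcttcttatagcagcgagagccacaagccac
STEAP1: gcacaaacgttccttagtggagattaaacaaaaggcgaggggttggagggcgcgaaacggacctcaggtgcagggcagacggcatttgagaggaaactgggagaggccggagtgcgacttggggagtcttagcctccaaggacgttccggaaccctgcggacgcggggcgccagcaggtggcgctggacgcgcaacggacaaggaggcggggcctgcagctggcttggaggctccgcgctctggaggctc
STEAP2: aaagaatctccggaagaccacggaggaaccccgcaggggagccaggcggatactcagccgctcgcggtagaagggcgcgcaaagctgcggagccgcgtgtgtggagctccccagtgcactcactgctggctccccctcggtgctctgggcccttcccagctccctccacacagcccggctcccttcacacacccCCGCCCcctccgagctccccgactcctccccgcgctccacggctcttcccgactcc
The TFPI2 window held 2 GC boxes and 1 AP-1 motif, those of STEAP4 and STEAP2 held 1 GC box each, and that of STEAP1 held none of the motifs searched.

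The motifs were searched on both strands, and none contains another: the GC box GGGCGG, the CCAAT box CCAAT, the TATA box TATAAA, the AP-1 motif TGANTCA and the E box CACGTG. Windows were found for 52 of the 59 genes, 71 windows in all. A GC box stood in 64.8% of them, against 42.6% of all 35116 windows of RefSeq promoters. A CCAAT box stood in 21.1% against 32.0%, a TATA box in 7.04% against 10.7%, an AP-1 motif in 4.23% against 6.57% and an E box in 4.23% against 6.34%. The NRF1 motif stood in 1.41% against 1.03%. Their median GC content was 64.4% against 58.0%, and the median number of CpG dinucleotides was 21 against 11. The windows were thus richer in CpG than RefSeq promoters taken whatever the expression of their genes. A comparison with the promoters of expressed genes alone was not made, so this is not shown to be particular to the list. A motif match is a description of letters, not of a bound site.

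Most of the 7q genes were lower in PC9/gef. Of 57 genes measured, 39 fell, or 68.4%, where 17.1% of all genes tested were called lower, and 4 rose, or 7.02%, where 14.4% were called higher. SGCE, PEG10, PON3 and FAM3C were those that rose, and 14 genes did not pass the test. Of the 39, SEMA3D and GTPBP10 lay at background in both lines, with differences under 0.01. The median change of the 57 genes was -0.51 on the log2 scale, with an interquartile range of -0.76 to -0.16, and that of all genes was -0.00065. As the genes were listed with this contrast known, nothing is read from these counts about the list.

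The genes called lower outside background ranged from -0.21 for CAV2 to -2.91 for TFPI2. For 34 of the 57 the change lay between -1 and -0.3, and only 6 genes were over 2-fold lower, CACNA2D1, STEAP4, STEAP1, STEAP2, TFPI2 and TSPAN12 (1.34% of all genes). PEG10 alone was over 2-fold higher (1.54% of all genes). The 3 PC9/gef arrays were all below the 3 PC9 arrays for 49 genes and all above them for 5, where 36.7% and 19.1% of all genes were so placed. SEMA3A, CROT and DYNC1I1 were those whose arrays overlapped. The replicates were tight, with a median SD over the genes of 0.043 in PC9 and 0.052 in PC9/gef, so that most changes were many times the spread between replicates.

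The arrays within each line were shifted alike. Taken against the mean of the 6 arrays, the median over the 57 genes was 0.25, 0.29 and 0.28 on the 3 PC9 arrays and -0.23, -0.29 and -0.27 on those of PC9/gef. No array stood apart from the other two of its line. Over all genes the same medians were all under 0.001 in size. As values were centred on each gene's mean and the genes listed with the contrast known, the opposite signs were built in. Only the likeness of the arrays within a line is read from these medians.

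**Figure D1:**
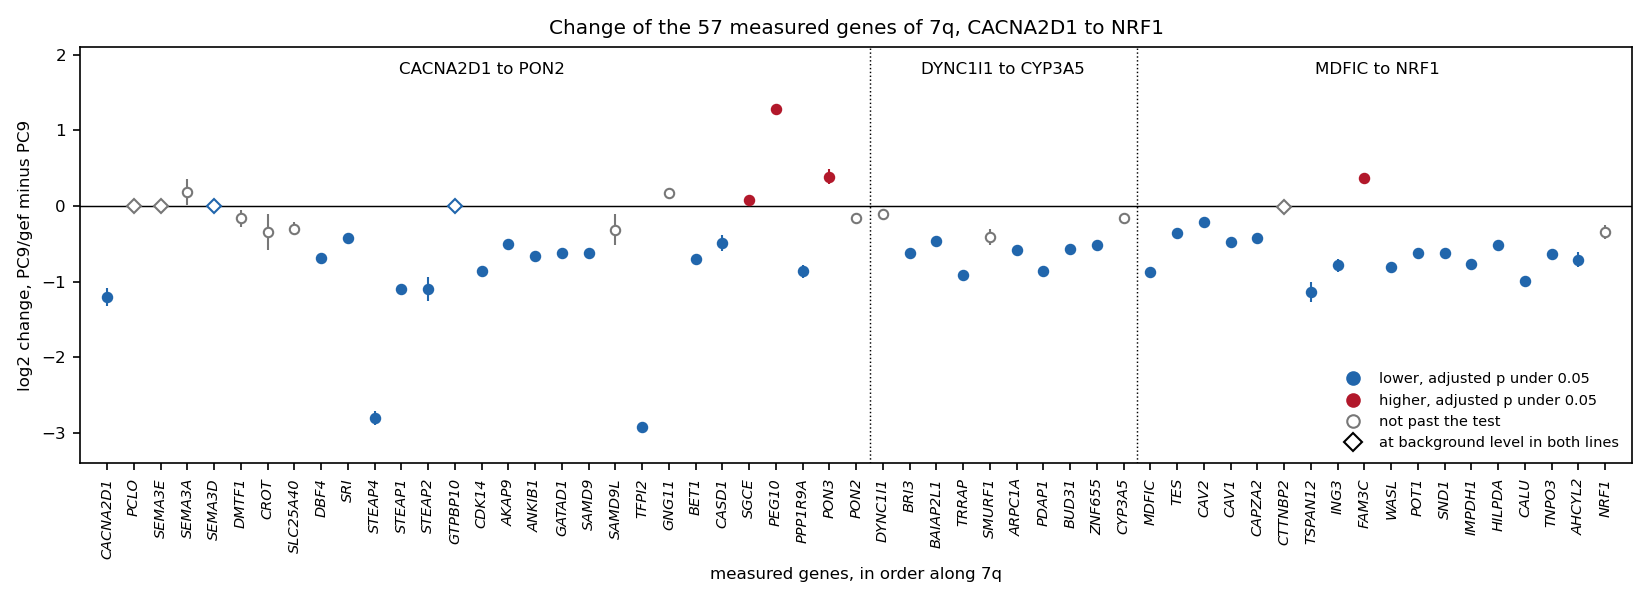
Log2 change (PC9/gef minus PC9) of each of the 57 genes in the order of the arm, with the SE of the limma fit as bars, 3 arrays per line. Most points lie between -1 and -0.3, TFPI2 and STEAP4 lie furthest below 0 at -2.91 and -2.80, and PEG10 lies furthest above it at 1.28.

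The median change was -0.42 in the block from CACNA2D1 to PON2, -0.54 in that from DYNC1I1 to CYP3A5 and -0.62 in that from MDFIC to NRF1. In the first block 17 of 29 genes fell, SEMA3D and GTPBP10 at background among them, and 3 rose. In the second 7 of 10 fell and none rose, and in the third 15 of 18 fell and 1 rose. Over all genes, 17.1% were called lower and 14.4% higher. Genes at background had changes near 0. These were PCLO, a scaffold of presynaptic terminals, SEMA3E, SEMA3D, GTPBP10, a mitochondrial GTPase, and CTTNBP2, a cortactin-binding protein, all at background in both lines. Among the 51 genes whose mean over the arrays was above it, the median was -0.58, 37 fell and 4 rose, where 22.4% and 24% of all genes above background were called lower and higher.

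TFPI2 fell most of all. It read 12.04, 12.06 and 11.96 in PC9 and 9.12, 9.06 and 9.14 in PC9/gef. No array of one line came near those of the other, and the change was -2.91 ± 0.037 (SE, n = 3 per line), or 7.53-fold lower. Its second probe set gave -2.88. The encoded inhibitor is secreted and held in the extracellular matrix, where it acts on plasmin and related proteases.

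The STEAP genes encode membrane proteins of the six-transmembrane epithelial antigen of prostate family, of which STEAP2 and STEAP4 reduce iron and copper at the cell surface and in endosomes. STEAP4 read 6.02, 6.14 and 6.15 in PC9 and 3.44, 3.32 and 3.14 in PC9/gef, a change of -2.80 ± 0.092 (SE, n = 3), or 6.97-fold lower. STEAP1 read 11.11, 11.06 and 11.07 against 9.94, 9.98 and 10.05, a change of -1.09 ± 0.035 (SE, n = 3), or 2.13-fold. STEAP2 read 5.62, 5.14 and 5.31 against 4.20, 4.44 and 4.14, a change of -1.09 ± 0.16 (SE, n = 3), or 2.14-fold. All PC9/gef arrays were below all PC9 arrays for each of the 3 genes, with STEAP2 the most scattered. A second probe set of STEAP4 changed by only -0.02.

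CACNA2D1, the first gene of the list, encodes an auxiliary subunit of voltage-gated calcium channels. It read 6.68, 6.24 and 6.43 in PC9 and 5.29, 5.22 and 5.24 in PC9/gef. The arrays did not overlap and the change was -1.20 ± 0.12 (SE, n = 3), or 2.30-fold lower.

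The 3 class 3 semaphorins of the stretch encode secreted ligands that guide axons and vessels through neuropilins and plexins. SEMA3A read 3.49, 2.96 and 3.48 in PC9 and 3.44, 3.48 and 3.56 in PC9/gef. The arrays overlapped and the change, 0.19 ± 0.17 (SE, n = 3), did not pass the test. SEMA3D lay at 2.47 and SEMA3E at 2.55 in both lines, at background, so no change of either ligand could be read from these arrays.

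DBF4, CDK14 and SRI of the first block fell, while DMTF1 and GNG11 did not pass the test. DBF4, the activating subunit of the CDC7 kinase that fires replication origins, changed by -0.69 ± 0.043 (SE, n = 3). CDK14, a cyclin-dependent kinase that acts on the Wnt coreceptor, changed by -0.86 ± 0.032, with -0.86 to -0.05 over its probe sets. DMTF1, a transcription factor that binds D-type cyclins, changed by -0.16 ± 0.11 and did not pass. SRI, which encodes the calcium-binding protein sorcin, changed by -0.42 ± 0.016, and GNG11, a G-protein gamma subunit, by 0.18 ± 0.053 without passing.

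Among the other genes of the first block, BET1, AKAP9, PPP1R9A, ANKIB1, GATAD1 and CASD1 fell. BET1, a SNARE of transport from the endoplasmic reticulum to the Golgi, was among the most even, at 9.48, 9.45 and 9.46 in PC9 and 8.76, 8.77 and 8.75 in PC9/gef. Its change was -0.70 ± 0.010 (SE, n = 3), and the arrays lay well apart. AKAP9, a scaffold of centrosome and Golgi that anchors protein kinase A, changed by -0.50 ± 0.047 (SE, n = 3). PPP1R9A, the actin-binding protein neurabin, changed by -0.86 ± 0.091, ANKIB1, a ubiquitin ligase, by -0.66 ± 0.031, and GATAD1, a zinc finger protein of chromatin, by -0.62 ± 0.044. CASD1, which acetylates sialic acids in the Golgi, changed by -0.48 ± 0.10, and this call was lost without the second PC9 array or any 1 PC9/gef array. The peroxisomal enzyme gene CROT (-0.34 ± 0.24) and the mitochondrial carrier gene SLC25A40 (-0.30 ± 0.086) did not pass.

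SAMD9 and SAMD9L are neighbouring, interferon-inducible genes whose products restrain growth and viral replication. SAMD9 read 6.79, 6.87 and 6.83 in PC9 and 6.32, 6.17 and 6.15 in PC9/gef, a change of -0.62 ± 0.054 (SE, n = 3) with no overlap. SAMD9L read 2.55, 3.19 and 2.55 against 2.44, 2.44 and 2.47. Only the second PC9 array was above background for SAMD9L, and its change of -0.31 ± 0.20 (SE, n = 3) did not pass.

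The genes that ran the other way included the imprinted pair SGCE and PEG10, which share a promoter region. PEG10, a retrotransposon-derived gene, read 9.52, 9.56 and 9.48 in PC9 and 10.81, 10.86 and 10.73 in PC9/gef. All PC9/gef arrays were above all PC9 arrays, by 1.28 ± 0.043 (SE, n = 3) or 2.43-fold. Its second probe set gave 0.37 without passing, with means of 2.28 in PC9, below background, and 2.66 in PC9/gef, barely above it. SGCE, which encodes epsilon-sarcoglycan, read 9.21, 9.22 and 9.19 against 9.26, 9.28 and 9.32. The lines did not overlap for SGCE either, but the change was only 0.08 ± 0.019 (SE, n = 3), or 1.06-fold.

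The paraoxonases PON2 and PON3 hydrolyse lactones and limit lipid oxidation. PON3 read 2.58, 2.57 and 2.57 in PC9, at background, and 2.77, 3.0 and 3.11 in PC9/gef, at least 1.24-fold higher. PON2 read 10.17, 10.17 and 10.26 against 9.96, 10.01 and 10.14. The arrays of PON2 did not overlap, but its change of -0.16 ± 0.058 (SE, n = 3) did not pass. The rises of SGCE and PON3 were small and their calls were lost without any 1 array other than the first PC9/gef array, which left 2 genes called higher without any 1 PC9 array or the third PC9/gef array.

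**Figure D2:**
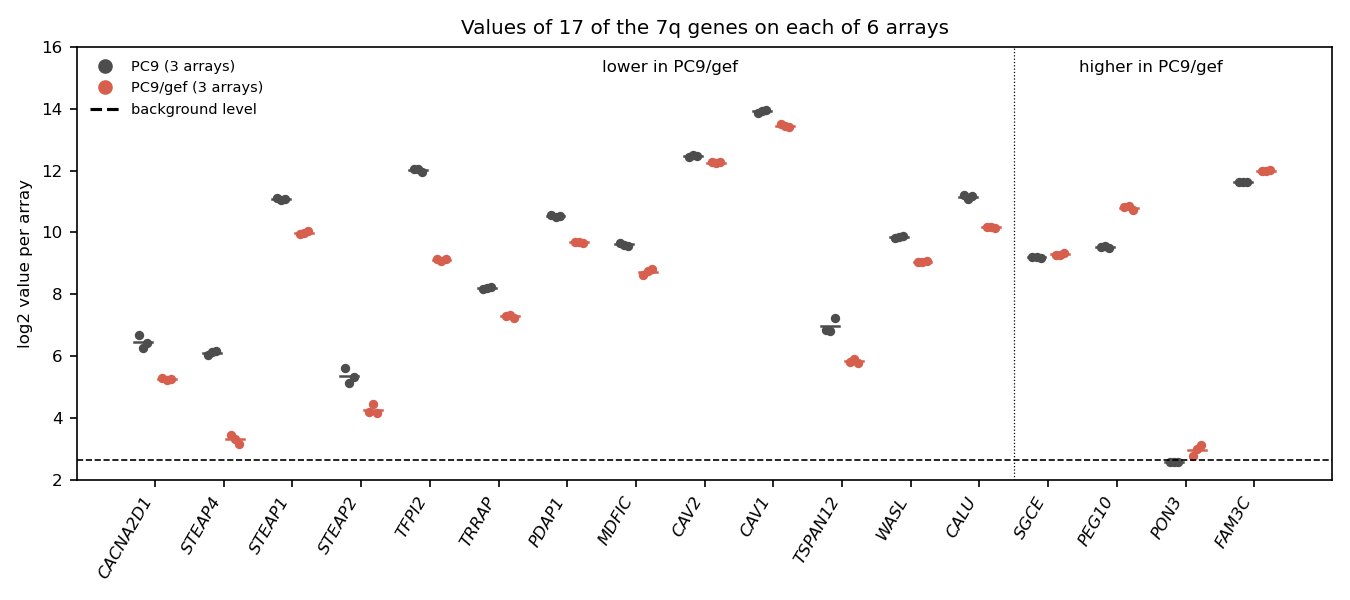
Log2 value on each of the 6 arrays for 17 of the genes, dots for arrays and short lines for the mean of a line, with the background level dashed. The 3 arrays of a line lie close together and the lines are separate for all 17, with 13 genes lower and 4 higher in PC9/gef.

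In the second block, TRRAP and PDAP1 fell most. TRRAP, the scaffold of several histone acetyltransferase complexes, read 8.18, 8.21 and 8.24 in PC9 and 7.30, 7.33 and 7.24 in PC9/gef, a change of -0.92 ± 0.029 (SE, n = 3), or 1.89-fold. PDAP1, which encodes a PDGFA-associated phosphoprotein, read 10.57, 10.51 and 10.52 against 9.69, 9.68 and 9.65, a change of -0.86 ± 0.021 (SE, n = 3). The arrays of the lines were well apart for both genes.

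BRI3, ARPC1A and BUD31 followed. BRI3 read 10.91, 10.90 and 10.93 in PC9 and 10.25, 10.35 and 10.27 in PC9/gef, a change of -0.62 ± 0.029 (SE, n = 3). ARPC1A, a subunit of the Arp2/3 complex that branches actin filaments, read 11.92, 11.96 and 11.94 against 11.37, 11.35 and 11.36, a change of -0.58 ± 0.013 (SE, n = 3). BUD31, a splicing factor, read 11.15, 11.12 and 11.15 against 10.58, 10.55 and 10.58, a change of -0.57 ± 0.015 (SE, n = 3). All 3 genes were separated in every array, and the only probe sets of BRI3 and BUD31 that are not of the type shared between transcripts lay at background.

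The actin and membrane-bending protein gene BAIAP2L1 changed by -0.46 ± 0.018 (SE, n = 3) and the zinc finger gene ZNF655 by -0.51 ± 0.046. SMURF1, a ubiquitin ligase of the BMP pathway, changed by -0.41 ± 0.11 and just missed the threshold (adjusted p = 0.0501, limma). The ends of the block did not pass either. DYNC1I1, a dynein intermediate chain best known from neurons, read 5.03, 5.02 and 4.95 in PC9 and 4.81, 5.00 and 4.89 in PC9/gef, which overlapped. CYP3A5, a drug-metabolising cytochrome P450, read 3.22, 3.02 and 3.10 against 2.93, 2.98 and 2.97, not far above background.

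In the third block, the caveolin genes CAV1 and CAV2, whose products coat caveolae, both fell, by less than the median of the block. CAV1 read 13.87, 13.94 and 13.96 in PC9 and 13.50, 13.44 and 13.40 in PC9/gef, a change of -0.48 ± 0.039 (SE, n = 3) or 1.39-fold. CAV2 read 12.46, 12.50 and 12.47 against 12.27, 12.24 and 12.28, a change of -0.21 ± 0.017 (SE, n = 3) or 1.16-fold. Neither gene overlapped between the lines. The second probe set of CAV1 also gave -0.48, and those of CAV2 ran from -0.24 to -0.14. The call of CAV2 was lost with the mean over its probe sets.

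TSPAN12, a tetraspanin that promotes Norrin signalling through a Frizzled receptor, and CALU, which encodes the calcium-binding protein calumenin of the secretory pathway, fell most in this block. TSPAN12 read 6.83, 6.82 and 7.22 in PC9 and 5.79, 5.89 and 5.78 in PC9/gef, a change of -1.13 ± 0.13 (SE, n = 3) or 2.19-fold. CALU read 11.22, 11.08 and 11.16 against 10.18, 10.18 and 10.14, a change of -0.99 ± 0.042 (SE, n = 3) or 1.98-fold. The arrays of both genes were separate. All 5 probe sets of CALU fell, by -1.28 to -0.99. The other probe sets of TSPAN12, both above background, gave 0.10 and 0.05 without passing, so that its fall rests on 1 of 3 probe sets.

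MDFIC, WASL and ING3 came next. MDFIC, a regulator of transcription factors of the MyoD family, read 9.66, 9.59 and 9.57 in PC9 and 8.63, 8.76 and 8.81 in PC9/gef, a change of -0.88 ± 0.056 (SE, n = 3). WASL, or N-WASP, which activates the Arp2/3 complex, read 9.83, 9.86 and 9.90 against 9.06, 9.03 and 9.08, a change of -0.81 ± 0.024 (SE, n = 3). ING3, a histone-binding subunit of the NuA4 acetyltransferase complex that also holds TRRAP, read 7.58, 7.69 and 7.71 against 6.95, 6.72 and 6.96, a change of -0.78 ± 0.084 (SE, n = 3). None of the 3 overlapped between lines. Of MDFIC's 4 probe sets, 1 lay at background and the others changed by -1.29 to -0.45, and the one that represented it when shared probe sets were left out did not pass.

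FAM3C was the exception of the third block. It encodes a secreted cytokine-like protein linked to epithelial-mesenchymal transition, and read 11.62, 11.63 and 11.64 in PC9 and 11.99, 11.97 and 12.02 in PC9/gef. All PC9/gef arrays were above all PC9 arrays, by 0.37 ± 0.016 (SE, n = 3) or 1.29-fold, and its other probe set above background gave 0.22. With the mean over its probe sets, the call was lost.

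Of the remaining genes of the third block above background, NRF1 alone did not pass the test. POT1, which binds the single-stranded end of telomeres, changed by -0.62 ± 0.062 (SE, n = 3), and SND1, a nuclease associated with RNA-induced silencing, by -0.62 ± 0.035. IMPDH1, an enzyme of guanine nucleotide synthesis, changed by -0.76 ± 0.035, and TNPO3, which imports splicing factors into the nucleus, by -0.64 ± 0.045. AHCYL2, a homologue of S-adenosylhomocysteine hydrolase, changed by -0.71 ± 0.10, and HILPDA, a lipid droplet protein induced by hypoxia, by -0.51 ± 0.043. TES, a focal adhesion protein, changed by -0.36 ± 0.037 and CAPZA2, a subunit of the actin capping protein, by -0.42 ± 0.041. NRF1, the last gene, a transcription factor of mitochondrial and housekeeping genes, read 6.12, 6.11 and 6.11 in PC9 and 5.63, 5.96 and 5.74 in PC9/gef. Its arrays did not overlap, but its change of -0.34 ± 0.093 (SE, n = 3) missed the threshold, and passed without the second PC9/gef array.

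Different probe sets of a gene mostly agreed in sign, but often not in size. They gave -2.80 and -0.02 for STEAP4, the latter near background, and -0.86 to -0.05 for CDK14. Of the 140 probe sets, 37 were at background in both lines, and of the other 103, 66 fell, 2 rose and 35 did not pass, where 16.5% and 16.4% of all probe sets not at background in both lines were called lower and higher. Among 32 genes with more than 1 probe set above background, all estimates were below 0 for 28 and above 0 for PEG10 and FAM3C. SEMA3A and TSPAN12 had estimates of both signs. The share of all genes whose probe sets agree in sign was not computed, and these genes were listed with the contrast known.

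The stretch held 249 further genes that were not listed but lie between CACNA2D1 and NRF1. Of these, 93 were called lower and 3 higher, where 17.1% and 14.4% of all genes were, and 15 of the 93 lay at background in both lines. Their median change was -0.014, with 110 genes at background in both lines. Among the 135 above it the median was -0.31, and 78 fell, or 57.8%, where 22.4% of all genes above background were called lower. ASNS, asparagine synthetase, rose by 0.60 (adjusted p = 0.0011, limma), and NRCAM and ZKSCAN1 rose by 0.42 and 0.13. The listed genes had been picked on this contrast, so nothing is read from the distance between their median and that of the unlisted ones.

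Among unlisted genes, FZD1, a Wnt receptor, fell most, from a mean of 5.90 to 3.72, a change of -2.17 ± 0.085 (SE, n = 3), or 4.51-fold (adjusted p = 0.00027, limma). AGFG2, LOC100630923, CADPS2 and ZKSCAN5 followed, with changes of -1.83, -1.66, -1.50 and -1.31. MET, the hepatocyte growth factor receptor and neighbour of CAV1, read 12.70, 12.75 and 12.73 in PC9 and 12.10, 12.16 and 12.09 in PC9/gef, a change of -0.61 ± 0.026 (SE, n = 3). The lines were separate for MET, and its change was close to the median of the third block. CDK6, a kinase of the G1 phase, changed by -0.63 ± 0.070 (SE, n = 3) and MCM7, a subunit of the replicative helicase, by -0.52 ± 0.045. LRRC4 changed by -0.93 ± 0.19, and this call was lost without any 1 array other than the third PC9 array. HGF, the ligand of MET, lies before CACNA2D1 and was at background in both lines.

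**Figure D3:**
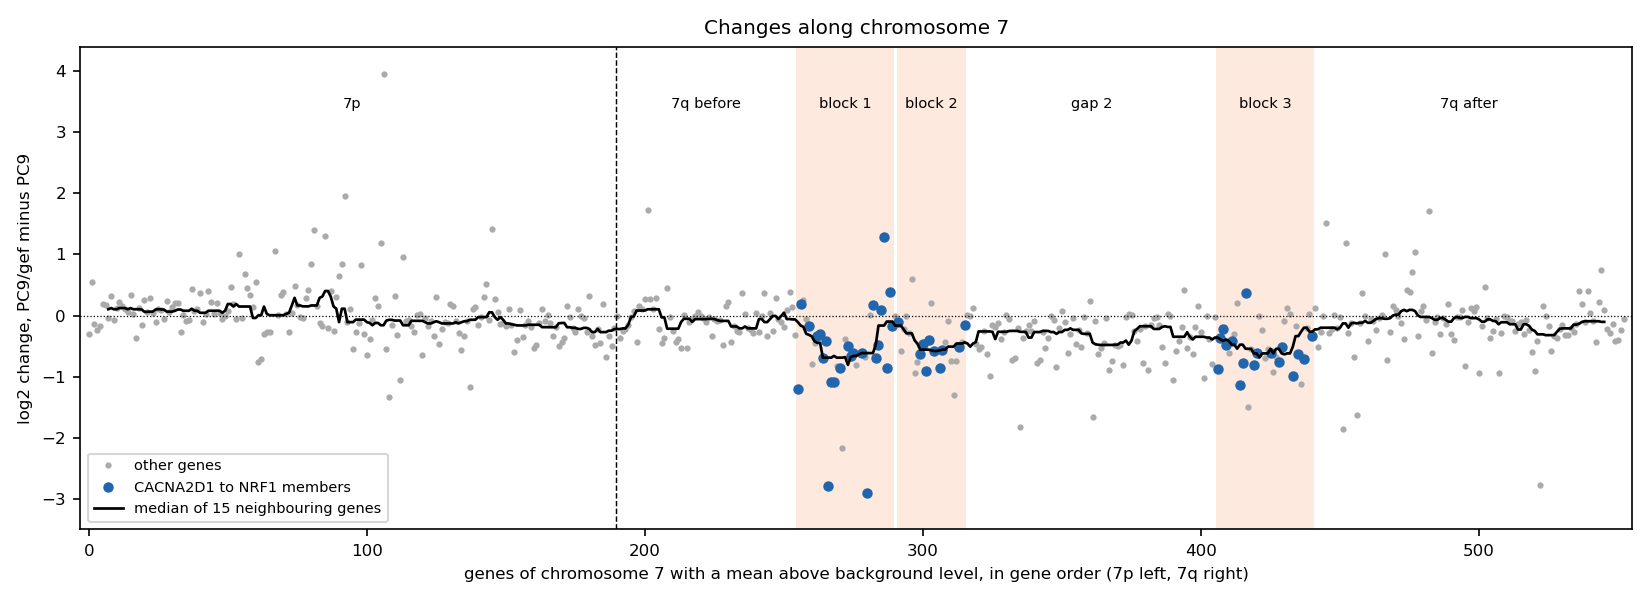
Log2 change of the chromosome 7 genes above background by their rank in gene order, with a running median of 15 genes the listed genes marked, the 3 blocks shaded and the genes of the long arm before, between and after them named so. On the long arm outside the stretch, the running median is mostly below 0. It is -0.064 at SEMA3C just before the first block, and above 0 in places, as at UBN2 with 0.092. It is lowest at AKAP9 with -0.81, reads -0.16 at PEG10 and -0.26 at NRF1, and is still -0.23 at UBE2H just after the third block. Between the second and the third block it reads -0.51 at AZGP1, -0.48 at POLR2J and -0.18 at PUS7. Outside the stretch it reads 0.40 at GPNMB and -0.27 at EGFR on the short arm, and -0.32 at ABCB8 on the long arm.

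Elsewhere on chromosome 7, medians of whole regions lay nearer 0, but on the long arm more genes fell than rose there too. Within these regions the running median of 15 genes varied. It read -0.27 at EGFR and 0.40 at GPNMB on the short arm, and -0.32 at ABCB8 on the long arm after NRF1. Among genes above background, the median change was -0.033 on the short arm (190 genes), -0.059 on the long arm before CACNA2D1 (65 genes) and -0.11 after NRF1 (112 genes). Of the 65 genes before CACNA2D1, 22 fell and 4 rose, and of the 112 after NRF1, 40 fell and 17 rose, or 33.8% and 35.7% lower, where 22.4% of all genes above background were called lower and 24% higher. Over the unlisted genes of the 3 blocks the median change was -0.63 (11 genes), -0.44 (15 genes) and -0.27 (18 genes). Between the second and the third block it was -0.27 over 90 genes. There the running median read -0.51 at AZGP1, near the second block, and -0.48 at POLR2J. The last 10 genes above background before CACNA2D1, from POMZP3 to SEMA3C, had a median of -0.0059, with 2 lower and 1 higher. The first 10 after NRF1, from UBE2H to MKLN1, had a median of -0.11, with 3 lower and 2 higher. EGFR, on the short arm, read 12.90, 12.87 and 12.87 in PC9 and 12.57, 12.49 and 12.55 in PC9/gef, a change of -0.34 ± 0.023 (SE, n = 3).

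**Figure D4:**
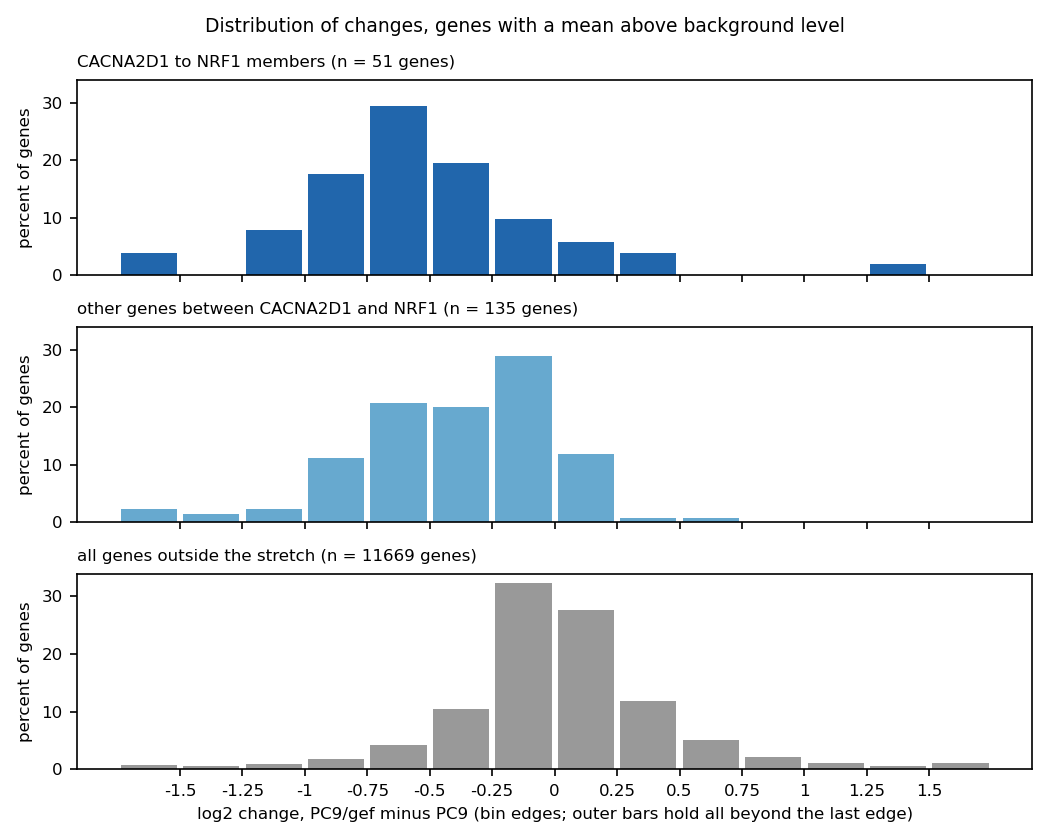
Share of genes above background (percent) by log2 change for the 51 listed genes, the 135 other genes of the stretch and the 11669 genes elsewhere. The listed genes centre on -0.58, the other genes of the stretch on -0.31 and the genes elsewhere on -0.0062.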

How the data were processed

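RNA from 3 biological replicates each of PC9 and PC9/gef was hybridised to Affymetrix Human Genome U133 Plus 2.0 arrays, 6 in all. The authors deposited normalized log2 values, with RMA named in the submitters' processing notes and GC-RMA in the study's methods; which of these made the values is not settled, and values near the floor are compressed. The genome build is not given in the sources used here. Of 54675 probe sets, 62 controls were left out. Each remaining probe set was fitted with limma 3.58.1 (lmFit and eBayes, R 4.3.3), PC9/gef against PC9. A single gene symbol was given for 41091 probe sets, more than one for 1801, and 11721 had no symbol. Each gene was represented by its brightest probe set, and p-values were adjusted over 19775 genes. Gene order and promoters came from RefSeq on GRCh38.p14. A gene with 1 line at background has its fold given as a lower bound, against the background level of 2.65.

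The listed genes, the partner lists and the alternatives were chosen with earlier results of these data known. Array values are printed for the 5 most changed genes of each block whose arrays did not overlap, genes called against their block, related pairs and groups, and block ends. BET1 and the remaining genes outside that rule were named after their values were seen. The fit was tested on simulated data. With 3 arrays against 3, an exact permutation test cannot go below 0.1. The number of arrays limits the precision. Other normalizations, filters, probe-set rules and fits, and leaving out each array, were tried. Figures were drawn with Python 3.11.15 and matplotlib 3.10.9.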

Additional observations from a re-analysis of the deposited data

How the results depend on the processing

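Of the 39 genes called lower, between 32 and 39 were called so again under each alternative, and of the genes followed one by one only STEAP3, which is not on the list, turned direction. Without 1 array at a time, 37 to 41 listed genes were lower and 2 to 4 higher, 64 to 116 other genes of the stretch were lower, and the medians ran from -0.55 to -0.50 over the list, -0.46 to -0.42 in the first block, -0.56 to -0.53 in the second and -0.63 to -0.60 in the third. With dim probe sets left out, the medians were -0.58 over the list, -0.31 over the other genes of the stretch and -0.56 in the first block. With the mean over a gene's probe sets they were -0.40, -0.0081 and, by block, -0.33, -0.36 and -0.44, and 0 listed genes were over 2-fold higher. Without probe sets shared between transcripts, 1 other gene of the stretch was higher, their median was -0.0046, that of the second block was -0.41, and STEAP3 turned to -0.089. Against a minimum change of 1.2-fold, 2 listed genes were higher, 50 other genes of the stretch lower and 1 higher, and 9 partner genes lower and 11 higher. With the 99th percentile as background level, 18 listed genes lay at it.

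The replicate numbers did not pair the arrays, since deviations of same-numbered arrays correlated at -0.026, 0.016 and 0.048. With the replicate block, 32 listed genes were lower and 2 higher (STEAP2 and TSPAN12 among the calls lost, with adjusted p of 0.082 and 0.051), 60 other genes of the stretch were lower, and calls over all genes went from 3382 to 1698 lower and from 2854 to 1832 higher. Signal limits what can be read: 54.2% of all probe sets lay at background, where no fall can be measured.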

Other observations

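Genes on any chromosome whose products work with those of the 7q list were read as well, 64 of 71 listed and lying outside the stretch. Of these, 16 fell and 19 rose, where 17.1% and 14.4% of all genes were called lower and higher, and their median change was 0.034. Most were expressed, however. Of the 60 above background, 25% fell and 31.7% rose, nearer the 22.4% and 24% of all genes above background. Rises and falls were about as many. Of 7 receptors for class 3 semaphorins, 4 rose and 2 fell: NRP1 rose by 0.95 ± 0.052 (SE, n = 3; adjusted p = 0.00060, limma), and PLXNA2 changed by -1.74 ± 0.11 (adjusted p = 0.00088, limma), though its probe set not shared between transcripts gave -0.45 and did not pass. PLXND1, a receptor of SEMA3E, rose by 0.87 and PLXNA1 by 0.29, PLXNA4 was at least 2.06-fold higher, and NRP2 changed by -0.67.

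Of 7 genes of caveolae, 4 were called lower and none higher, where 17.1% and 14.4% of all genes were. Above background 3 of 5 fell, where 22.4% of all genes above background did. CAVIN1, the coat partner of CAV1, changed by -0.46 ± 0.021 (SE, n = 3), close to CAV1 itself, PACSIN2 by -0.42 and ROR1 by -0.64. The other call, CAVIN2, was at background in both lines, with a change of -0.0033. Of 11 genes of the Arp2/3 complex and its activators, 4 fell and 3 rose, with ARPC4 at -0.47 and ARPC3 at -0.42. ARPC1B, another subunit, lies in the stretch and was left out of this count. It was called lower, with a change of -0.56 ± 0.032 (SE, n = 3). Of 8 partners and targets of DBF4, MCM6, MCM2 and MCM5 rose by 0.50, 0.42 and 0.42 and CLSPN changed by -0.30. In the TRRAP complexes the acetyltransferase genes KAT2B and KAT2A changed by -1.46 and -0.55 and EP400 rose by 0.24, of 7 measured. HEG1, a membrane partner of KRIT1, rose by 1.72 ± 0.14 (SE, n = 3) or 3.30-fold, and PDCD10 and ITGB1BP1 of that complex by 0.40 and 0.17.

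None of 7 telomere-capping genes and neither of 2 genes of the actin capping protein passed the test. ENAH rose by 0.56, BMPR2 and SMAD7 by 0.91 and 0.68, GMPS by 0.39 and STEAP3 by 0.47 (-0.089 without probe sets shared between transcripts), while IMPDH2 changed by -0.71, AGO2 by -0.34 and MTDH by -0.26.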
